A study of Bos taurus with 6 samples.

Results

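The let-7 family with miR-98 was examined in small RNA libraries of extracellular vesicles (EVs) from cultured bovine granulosa cells. The members were the miRNAs whose identifiers start with bta-let-7, plus bta-miR-98, and they numbered 10 of the 512 miRNAs in the table: bta-let-7a-5p, bta-let-7a-3p, bta-let-7b, bta-let-7c, bta-let-7d, bta-let-7e, bta-let-7f, bta-let-7g, bta-let-7i and bta-miR-98. Granulosa cells of small follicles (3 to 6 mm) of Bos taurus from a slaughterhouse were cultured for 24 h at 37 °C with 10% exosome-depleted fetal bovine serum. They were then either kept at 37 °C (control-EVs, 3 libraries) or exposed to heat stress (HS) at 42 °C (HS-EVs, 3 libraries) for 24 h, and the EVs to be sequenced were precipitated from the spent medium of both groups with ExoQuick-TC, as the study's methods state (a legend of the study names ultracentrifugation instead). The libraries are called biological replicates, but no source used here says which animals or cultures each came from. The p-values therefore measure a spread between libraries, which limma draws partly from all 512 miRNAs of its fit. Values of single libraries are given in the order of replicates 1, 2 and 3.

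The let-7 miRNAs are among the most conserved miRNAs of animals and were found as a switch of developmental timing in the nematode. The mature members share their seed, the short stretch at the 5′ end that pairs with target mRNAs, and differ from each other in few other bases, so that they can act on largely the same mRNAs, such as those of RAS and HMGA2. LIN28 proteins block the maturation of most let-7 precursors, and the family rises as cells differentiate. miR-98 is a let-7 member under another name, and let-7a-3p comes from the opposite arm of the let-7a hairpin and does not carry the let-7 seed. Granulosa cells surround the oocyte, make steroid hormones and exchange EVs with it through the follicular fluid.

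In the RefSeq annotation of ARS-UCD2.0, which is not the assembly used by the authors, all 10 members matched 12 genes. The bta-let-7a products have 3 genes and bta-let-7f has 2, so that their values add up what several loci give. MIRLET7A-1, MIRLET7F-1 and MIRLET7D lie beside each other, and so do MIRLET7A-3 and MIRLET7B. MIRLET7A-2 lies with MIR100 and MIR125B-1, MIRLET7C with MIR99A and MIR125B-2, and MIRLET7E with MIR99B and MIR125A. MIR98 and MIRLET7F-2 lie beside each other within HUWE1, which codes for a ubiquitin ligase, and MIRLET7G lies within WDR82, which codes for a subunit of a histone methyltransferase complex. Because near-identical members can exchange reads when a mismatch is tolerated in mapping, as it was here, the split of reads between the members is less certain than their sum.

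The 6 libraries held 274434 to 2360980 reads on miRNAs (the smallest deposited value above 0 of a library was taken as 1 read). In each library this total exceeded the number of miRNA reads that the study lists for it, a difference that was not resolved here. The read counts, the Wilson intervals and the floor of 3 reads rest on the recovered totals, whereas shares and ratios do not depend on what was taken as 1 read. In HS-EVs replicate 1 the 2326839 recovered reads of bta-miR-1246 alone exceeded the miRNA reads listed for that library. Whether the difference touches shares of all reads was not resolved. The miRNA bta-miR-1246 took 59.9% to 98.6% of the reads of a library, the most in HS-EVs replicate 1, and left 34141 to 235634 reads for the other 511 miRNAs. HS-EVs replicate 1 therefore stood apart, with the most reads in total and the fewest on other miRNAs. Of 6 miRNAs known from granulosa cells, 4 had at least 10 reads in each library and 2, bta-miR-212 and bta-miR-383, had at most 1 read in any library. The 6 took 5.93% to 11.4% of the reads other than bta-miR-1246 in control-EVs and 6.07% to 11.2% in HS-EVs. Most of this was bta-miR-21-5p alone, with 4.67% to 9.99% in control-EVs and 4.49% to 10.1% in HS-EVs. Of the reads other than bta-miR-1246, 6 blood cell miRNAs took 0.505% to 1.14% in control-EVs and 0.415% to 0.779% in HS-EVs. The liver miRNA bta-miR-122, also found in serum, took 8.70% to 15.5% and 5.32% to 9.72%.

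The first question was how much of the EV miRNA the family made up, and whether heat stress of the cells moved it. After bta-miR-1246 was left out, between 21.6% and 26.5% of the reads belonged to the family in each library, and the ranges of the groups overlapped. In these bulk libraries, fewer vesicles that carry a miRNA and less of it per vesicle cannot be told apart. The share was 26.0% in control-EVs replicate 1, 22.3% in replicate 2 and 21.6% in replicate 3. In HS-EVs it was 26.3% in replicate 1, 22.6% in replicate 2 and 26.5% in replicate 3. This placed 2 libraries of HS-EVs above each control-EVs library and the other between the control-EVs libraries. The control-EVs averaged 23.3% ± 2.37 and the HS-EVs 25.1% ± 2.21 (both SD, n = 3). The difference of 1.82 percentage points was 3.17 without control-EVs replicate 1, 3.09 without HS-EVs replicate 2 and at the lowest 0.966, without control-EVs replicate 3, and it was 0.419 with bta-miR-122 also left out of the total. The share was higher in HS-EVs in 3 of 3 pairs of libraries with the same replicate number, by 0.314, 0.270 and 4.87 percentage points. The family's reads behind these shares numbered 19949, 52619 and 15912 for the control-EVs and 8996, 27900 and 22973 for the HS-EVs. The widest Wilson interval (95%, counting error only) was that of HS-EVs replicate 1, from 25.9% to 26.8%.

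Of all reads, bta-miR-1246 included, the family took far less, and its share varied far more between libraries. In control-EVs this share was 4.00%, 8.95% and 5.80%. In HS-EVs the same share was 0.381% in replicate 1, 5.51% in replicate 2 and 4.12% in replicate 3. HS-EVs replicate 1 lay below every other library, while the other 2 lay within the range of control-EVs. The control-EVs averaged 6.25% ± 2.51 and the HS-EVs 3.33% ± 2.65 (both SD, n = 3), a difference of -2.92 percentage points that was -1.44 without HS-EVs replicate 1 and -1.57 without control-EVs replicate 2. In 0 of the 10 members did this share separate the groups, against 4.88% of the 512 miRNAs. The share was lower in HS-EVs in each same-numbered pair, by 3.62, 3.44 and 1.68 percentage points. Over the same pairs, the share of bta-miR-1246 was higher by 13.9, 15.7 and 11.3 percentage points.

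**Figure D1:**
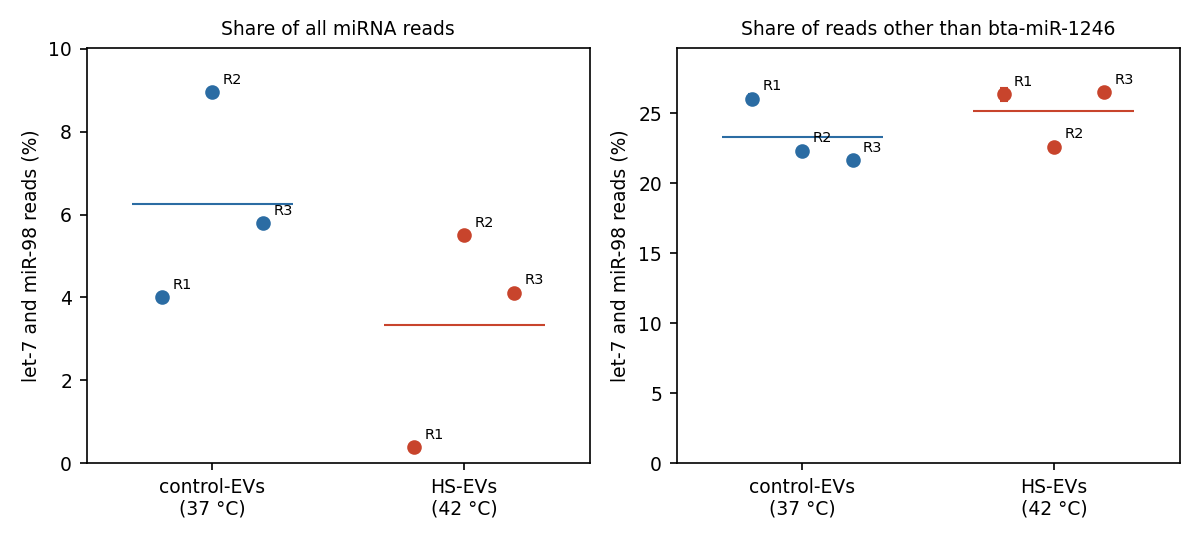
Reads of the 10 let-7 and miR-98 members as a percentage of all miRNA reads (left) and of the reads other than bta-miR-1246 (right), 1 point per library (R1 to R3), with Wilson 95% intervals that are mostly smaller than the points and a line at each group's mean. The left panel runs from 0.381% to 8.95%, whereas the right panel stays between 21.6% and 26.5%.

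On the deposited scale, the family's summed normalized counts were nearly the same in both groups. The sums were 36617, 36692 and 31442 normalized counts in control-EVs replicates 1 to 3. They were 36963, 30688 and 37444 in the HS-EVs. The means were 34917 ± 3010 and 35032 ± 3769 (both SD, n = 3) for control-EVs and HS-EVs. The sum was lower in HS-EVs in the pair numbered 2 and higher in the pairs numbered 1 and 3. This scale is set by TMM, the authors' trimmed mean of M-values, which makes most miRNAs alike between libraries, so that an equal family sum is a statement relative to the other miRNAs.

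Within the family, reads were concentrated on 4 members. bta-let-7a-5p, bta-let-7i, bta-let-7b and bta-let-7f together took between 87.4% and 88.8% of the family's reads in each library. bta-let-7c, bta-let-7e, bta-let-7g and bta-let-7d shared up to 12.5%, and bta-miR-98 and bta-let-7a-3p had the rest. The 3 members with the most reads in a library, which were not the same in each, took 71.7%, 78.8% and 75.6% of the family's reads in control-EVs and 70.4%, 70.2% and 70.9% in HS-EVs. This share did not overlap between the groups and was lower in HS-EVs in each same-numbered pair, which is given as a description. The share of the leading member alone and that of the first 4 did overlap between the groups. By mean share of the reads other than bta-miR-1246, the 4 abundant members ranked 4 (bta-let-7a-5p), 6 (bta-let-7i), 7 (bta-let-7b) and 8 (bta-let-7f) of 511 miRNAs. The next 4 ranked 23 (bta-let-7c), 24 (bta-let-7e), 26 (bta-let-7g) and 34 (bta-let-7d). bta-miR-98 ranked 110 and bta-let-7a-3p 253.

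No member led in every library. bta-let-7a-5p had the most reads in 4 of the 6 libraries, bta-let-7b in control-EVs replicate 2 and bta-let-7i in HS-EVs replicate 2. bta-let-7a-5p took 30.0%, 26.4% and 29.0% of the family's reads in the control-EVs and 29.9%, 25.1% and 27.4% in the HS-EVs. Its share thus moved by no more than 1.19-fold over all libraries, and the groups overlapped.

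The order below bta-let-7a-5p was not fixed either. Averaged over the 6 libraries, bta-let-7i took 21.7% and bta-let-7b 21.6% of the family's reads, and each exceeded the other in 3 libraries. bta-let-7f followed with 16.8%, yet it exceeded bta-let-7b in control-EVs replicate 1 and HS-EVs replicate 3. A clear step came after bta-let-7f, which had 2.91 to 6.91 times the reads of bta-let-7c. bta-let-7c and bta-let-7e, with means of 3.49% and 3.44%, changed places in 3 libraries, while bta-let-7g (2.83%) and bta-let-7d (2.01%) did so in 2. Another clear step lay between bta-let-7d and bta-miR-98 (0.190%), where the ratio was at the lowest 6.63 over the 6 libraries.

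**Figure D2:**
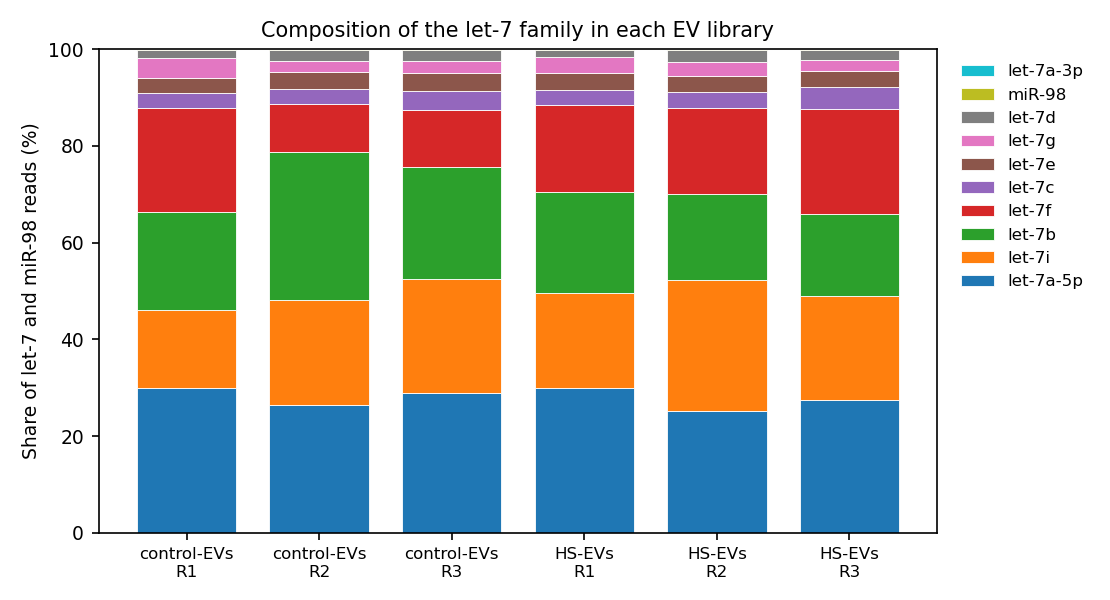
Share of the let-7 and miR-98 reads (%) taken by each of the 10 members in each EV library, stacked from the most to the least abundant by mean share. In every library bta-let-7a-5p, bta-let-7i, bta-let-7b and bta-let-7f fill between 87.4% and 88.8% of the bar, and bta-let-7f is thinnest in control-EVs replicates 2 and 3.

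The next question was whether the composition of the family differed between HS-EVs and control-EVs. Shares within the family do not depend on depth, on the scaling or on bta-miR-1246. Of the 10 members, 1 had groups that did not overlap, bta-miR-98. For the 502 miRNAs outside the family, set against the family's reads in the same way, the groups did not overlap in 6.18%. The share of bta-miR-98 was 0.185%, 0.179% and 0.138% of the family's reads in the control-EVs and 0.211%, 0.211% and 0.218% in the HS-EVs. Each HS-EVs value exceeded each control-EVs value (two-sided exact permutation test, p = 0.1, the smallest that 3 against 3 allow). Only 37, 94 and 22 reads stood behind the control-EVs values and 19, 59 and 50 behind those of HS-EVs, and the Wilson intervals of all 6 libraries overlapped each other (0.0913% to 0.209% in control-EVs replicate 3 and 0.165% to 0.287% in HS-EVs replicate 3).

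With all libraries, bta-let-7b and bta-let-7f had the largest differences in mean share, in opposite directions. bta-let-7b took 20.1%, 30.7% and 23.2% of the family's reads in the control-EVs and 20.9%, 17.9% and 16.8% in the HS-EVs. It averaged 24.7% ± 5.44 in the controls and 18.5% ± 2.13 under HS (both SD, n = 3), and the groups overlapped through the libraries numbered 1 (two-sided exact permutation test, p = 0.2). bta-let-7f took 21.6%, 9.92% and 11.7% in the control-EVs and 18.1%, 17.7% and 21.8% in the HS-EVs. It averaged 14.4% ± 6.27 in the controls and 19.2% ± 2.24 under HS (both SD, n = 3, two-sided exact permutation test, p = 0.3). Control-EVs replicate 1 was the highest control for bta-let-7f and the lowest for bta-let-7b and bta-let-7a-3p, and without it the groups no longer overlapped for these members. For bta-let-7b this was also so without HS-EVs replicate 1, and for bta-let-7a-3p without HS-EVs replicate 2. Smaller groups separate more readily, and no share over all miRNAs was computed for these settings. The difference for bta-let-7b, -6.11 percentage points, was -3.10 without control-EVs replicate 2. That for bta-let-7f, 4.82 percentage points, was 8.40 without control-EVs replicate 1 and 2.58 without control-EVs replicate 2, where bta-let-7i differed by more (3.03).

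bta-let-7i took 16.2%, 21.8% and 23.4% of the family's reads in the control-EVs and 19.6%, 27.2% and 21.7% in the HS-EVs. Its groups overlapped (two-sided exact permutation test, p = 0.6), and the difference of 2.36 percentage points was 0.206 without control-EVs replicate 1, 0.190 without HS-EVs replicate 2 and 3.96 without HS-EVs replicate 1. It was 3.85 without control-EVs replicate 3, where that of bta-let-7f was 3.48. Among the less abundant members, bta-let-7e was the most even, at 3.20% to 3.76% of the family's reads over all libraries. bta-let-7c ranged from 2.95% to 4.55%, bta-let-7d from 1.40% to 2.44% and bta-let-7g from 2.21% to 4.02%, each with overlapping groups. For these members the difference between the group means was between -0.152 and 0.207 percentage points, smaller than the SD of either group.

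Whole compositions were compared by the percentage points of share that would have to be moved to turn one library's family into another's. The most alike libraries were control-EVs replicate 1 and HS-EVs replicate 1, which differed by 4.76 points. The least alike were 2 controls, replicates 1 and 2, at 17.2 points. The median was 10.7 points over the 9 pairs of libraries from different groups and 8.44 points over the 6 pairs from the same group, and the ranges overlapped (4.76 to 14.5 and 7.53 to 17.2).

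Ratios between members gave a finer view that no scaling can move. Among the 36 pairs of the 9 members with at least 10 reads in every library, the groups did not overlap in 6 (16.7%). Over all 8385 pairs of the 130 miRNAs with this many reads, they did not overlap in 8.49%. Pairs that share a member are not independent, and 3 of the 6 involve bta-miR-98, set against bta-let-7a-5p, bta-let-7b and bta-let-7e. The others were bta-let-7b over bta-let-7e, bta-let-7d over bta-let-7i and bta-let-7f over bta-let-7g. The ratio of bta-let-7b to bta-let-7e was 6.29, 8.54 and 6.16 in the control-EVs and 5.78, 5.55 and 5.18 in the HS-EVs. That of bta-let-7d to bta-let-7i was 0.102, 0.102 and 0.101 in control-EVs and 0.0713, 0.0900 and 0.0927 in HS-EVs, lowest in HS-EVs replicate 1. That of bta-let-7f to bta-let-7g was 5.37, 4.48 and 5.05 in control-EVs and 5.54, 6.11 and 9.58 in HS-EVs. These pairs were chosen for not overlapping, and their values are a description.

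**Figure D3:**
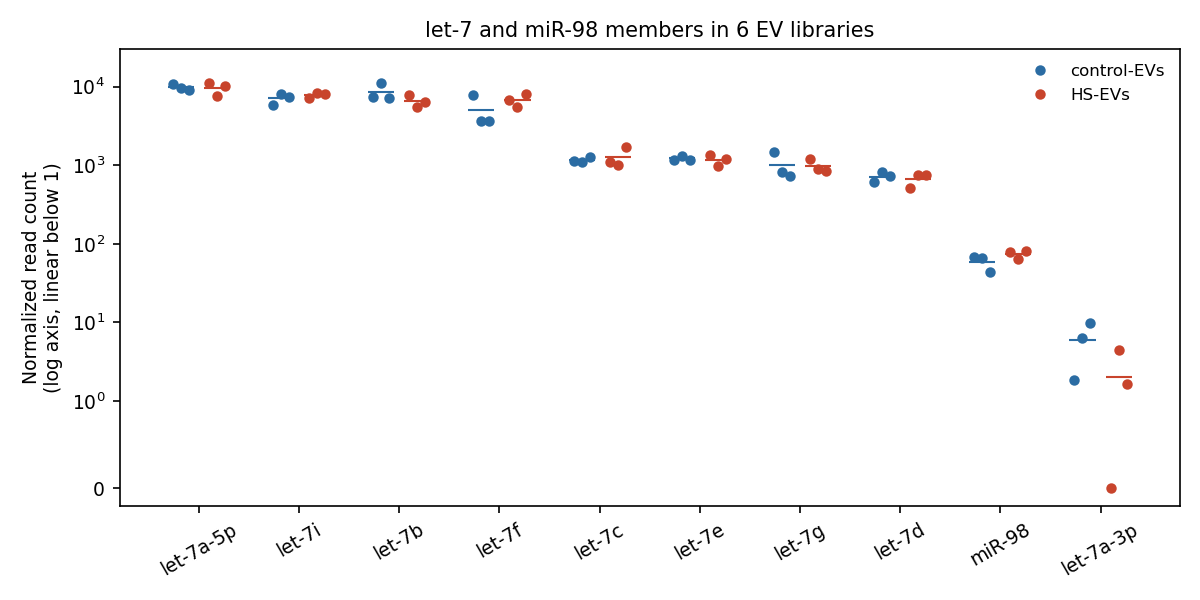
Deposited normalized read counts of the 10 members in the 3 control-EVs and 3 HS-EVs libraries (points; lines, group means), on an axis that is logarithmic above 1 and linear below. The groups overlap in each member, and the levels fall in steps after bta-let-7f, bta-let-7d and bta-miR-98.

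Each miRNA was then compared between HS-EVs and control-EVs with limma on log2(normalized count + 1), in a fit over all 512 miRNAs with Benjamini-Hochberg adjustment. The study's threshold was an adjusted p of at most 0.3 together with a log2 fold change of at least 1 in size. The study applied it with edgeR and reported miRNAs enriched in HS-EVs, none of them a member. With this threshold, limma called 0 of the 10 members and 0 of the 512 miRNAs (0%), so its lack of calls says little about the members. The unadjusted limma p was at most 0.05 for 0 of the 10 members and 25 of the 512 miRNAs (4.88%). On the recovered reads, the quasi-likelihood test of edgeR called 3 of the 512 miRNAs (0.586%) and DESeq2 called 0, and neither called a member. At an unadjusted p of at most 0.05, edgeR had 0 members and 5.08% of the miRNAs, and DESeq2 had 0 members and 10 miRNAs. The normalized counts of the groups did not overlap in 0 members, against 33 of the 512 miRNAs (6.45%, of which 3.71% of the 512 were higher in HS-EVs).

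Of the 10 members, 5 had a log2 fold change above 0. The median log2 fold change was -0.01 over the members and 0.01 over all 512 miRNAs. The median absolute log2 fold change was 0.13 over the members and 0.41 over all miRNAs, most of which had far fewer reads. The adjusted p-values of the members lay between 0.873 and 0.987 (limma).

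The most abundant member, bta-let-7a-5p, had 10980, 9676 and 9121 normalized counts in the control-EVs and 11036, 7706 and 10251 in the HS-EVs. The HS-EVs values enclosed those of control-EVs. The fitted log2 fold change was -0.05 with a standard error of 0.43 (95% interval -1.01 to 0.91, adjusted p = 0.974 from limma). This standard error is drawn partly from the spread of all miRNAs in the fit, most of them far scarcer. With a pseudocount of 5 it was 0.21, while the SD of this member within the groups was 0.22 in both fits.

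Among the abundant members bta-let-7f had the highest fitted log2 fold change, with a wide spread in control-EVs. It had 7898, 3639 and 3685 normalized counts in the control-EVs and 6697, 5447 and 8163 in the HS-EVs. The 3 HS-EVs libraries lay above control-EVs replicates 2 and 3, and 1 of them above replicate 1 as well. The log2 fold change was 0.50 with a standard error of 0.49 (95% interval -0.59 to 1.59, adjusted p = 0.873 from limma). Without control-EVs replicate 1 it was 0.87, with an unadjusted p of 0.0236 and an adjusted p of 0.517 from limma. It was 0.31 without control-EVs replicate 2, 0.32 without control-EVs replicate 3 and 0.35 without HS-EVs replicate 3.

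bta-let-7b had a lower mean in HS-EVs. It had 7361, 11254 and 7289 normalized counts in the control-EVs and 7737, 5484 and 6301 in the HS-EVs, where replicate 1 again lay within the control-EVs range. The log2 fold change was -0.39 with a standard error of 0.44 (95% interval -1.38 to 0.60, adjusted p = 0.873 from limma). It was -0.19 without control-EVs replicate 2 and -0.62 without both libraries numbered 1.

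bta-let-7i had 5920, 8002 and 7372 normalized counts in the control-EVs and 7260, 8339 and 8120 in the HS-EVs. It was higher in HS-EVs in 3 of 3 same-numbered pairs, with overlapping groups and a log2 fold change of 0.16 (limma, standard error 0.42 and adjusted p = 0.952), which was 0.04 without control-EVs replicate 1 and 0.26 without control-EVs replicate 2. As a share of the reads other than bta-miR-1246 its groups did not overlap: it took 4.21%, 4.87% and 5.07% of them in control-EVs and 5.18%, 6.14% and 5.75% in HS-EVs. Of the 511 miRNAs, 6.85% did not overlap on this scale, and bta-let-7i was the only one of the 10 members. The gap was narrow, since the Wilson interval of HS-EVs replicate 1 (4.95% to 5.42%) overlapped that of control-EVs replicate 3 (4.92% to 5.23%). With bta-miR-122 also left out of the total, which was tried after its values were seen, the groups overlapped.

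The 4 members of middle abundance had group means that differed by less than the larger of the group SDs. bta-let-7e had 1171, 1317 and 1184 normalized counts in control-EVs and 1339, 989 and 1218 in HS-EVs, with a fitted log2 difference of -0.06. bta-let-7c had 1144, 1108 and 1267 in control-EVs and 1089, 1012 and 1703 in HS-EVs, where replicate 3 was the highest, with a fitted log2 fold change of 0.08. bta-let-7g had 1470, 812 and 729 in control-EVs and 1208, 892 and 852 in HS-EVs, with a fitted log2 difference of 0.03. Both libraries numbered 1 were the highest for bta-let-7g. bta-let-7d had 604, 812 and 741 in control-EVs and 518, 750.2 and 753 in HS-EVs, with a fitted log2 difference of -0.10. Their 95% intervals reached from -1.08 to 1.08 at most on the log2 scale.

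The 2 scarce members had too few reads for a firm statement. bta-miR-98 had 67.9, 65.5 and 43.5 normalized counts in control-EVs and 78.1, 64.9 and 81.5 in HS-EVs, with a fitted log2 difference of 0.36 (limma, standard error 0.44 and adjusted p = 0.873). Without control-EVs replicate 3 the value of bta-miR-98 was 0.16. bta-let-7a-3p had 1, 9 and 5 reads in the control-EVs and 0, 4 and 1 in the HS-EVs. In 2 of the HS-EVs libraries and 1 control-EVs library it was therefore under 3 reads, the smallest number taken to differ from 0, and its fitted log2 fold change of -1.33 (limma, standard error 0.71 and adjusted p = 0.873) depended on the pseudocount, with -0.63 at a pseudocount of 5. It was -0.69 without HS-EVs replicate 1 and -2.17 with bta-miR-1246 left out of the total. The 0 reads of HS-EVs replicate 1 allow a share of up to 0.143% of the let-7a reads (upper end of the 95% Wilson interval). Summed over the 6 libraries, bta-let-7a-3p made up 20 reads against 40455 of bta-let-7a-5p, which is 0.0494% (95% Wilson interval 0.0320% to 0.0763%), so that nearly all reads of the let-7a hairpins came from the arm that carries the let-7 seed.

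**Figure D4:**
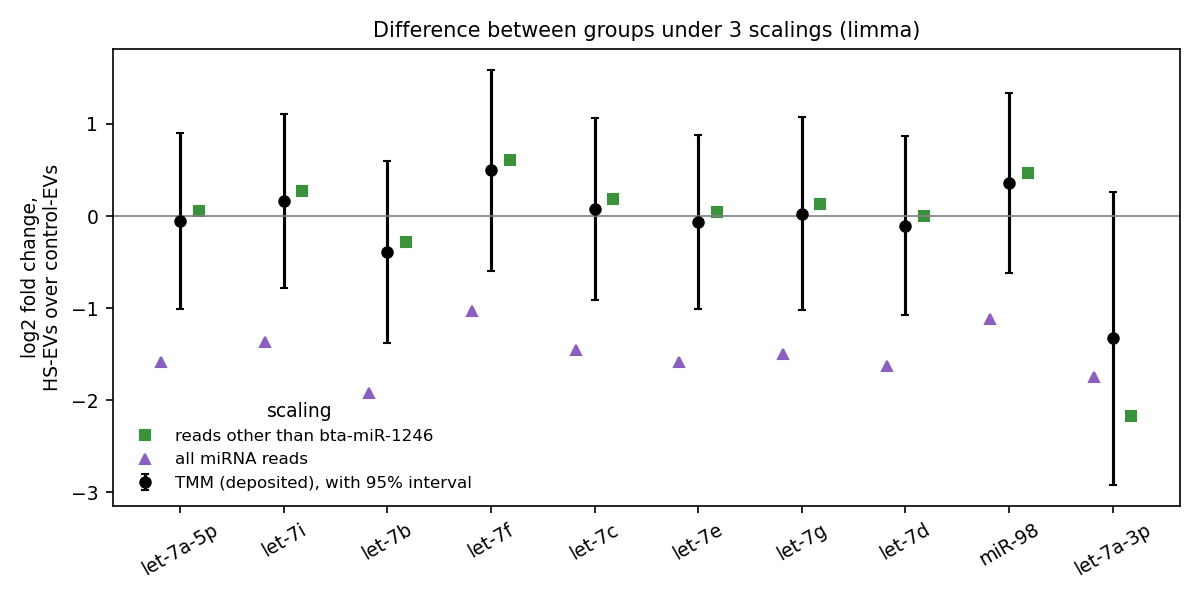
log2 fold change (HS-EVs over control-EVs, limma on log2 of the scaled value + 1) of the 10 members with the deposited TMM scaling (circles, with 95% intervals), scaled to the total without bta-miR-1246 (squares) and scaled by all miRNA reads (triangles). The intervals of the TMM values all cross 0, and the triangles lie below 0 for each member, between -1.92 and -1.03.

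The sign of most of these differences changed with the scaling, while bta-let-7b and bta-let-7a-3p were lower in HS-EVs on all 3 scales. Scaled by all miRNA reads, each of the 10 members was lower in HS-EVs, with a median log2 fold change of -1.54. On the same scale the median was -0.79 over the 512 miRNAs and -1.47 over the miRNAs outside the family with at least 10 reads in every library. With bta-miR-1246 left out of the total, 8 of the 10 members were higher in HS-EVs, with a median of 0.09 where that of the 512 miRNAs was 0.10. On none of the 3 scales was a member called, and the smallest unadjusted p-value of a member was 0.0856 on all reads (bta-let-7b, limma).

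The members also differed in how steady they were across the 6 libraries. As log2 of the share of reads other than bta-miR-1246, the SD over the libraries was 0.13 for bta-let-7e, the lowest of 129 miRNAs with at least 10 reads in each library. It was 0.19 for bta-let-7i (rank 6), 0.21 for bta-let-7a-5p (rank 9), 0.22 for bta-let-7d (rank 12), 0.26 for bta-let-7b (rank 24), 0.29 for bta-let-7c (rank 31) and 0.35 for bta-miR-98 (rank 45). bta-let-7g and bta-let-7f lay above the median of 0.41, with 0.43 (rank 68) and 0.59 (rank 96). The family's summed share had an SD of 0.14. The libraries of both groups enter these SDs, and miRNAs with few reads carry more counting error.

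**Figure D5:**
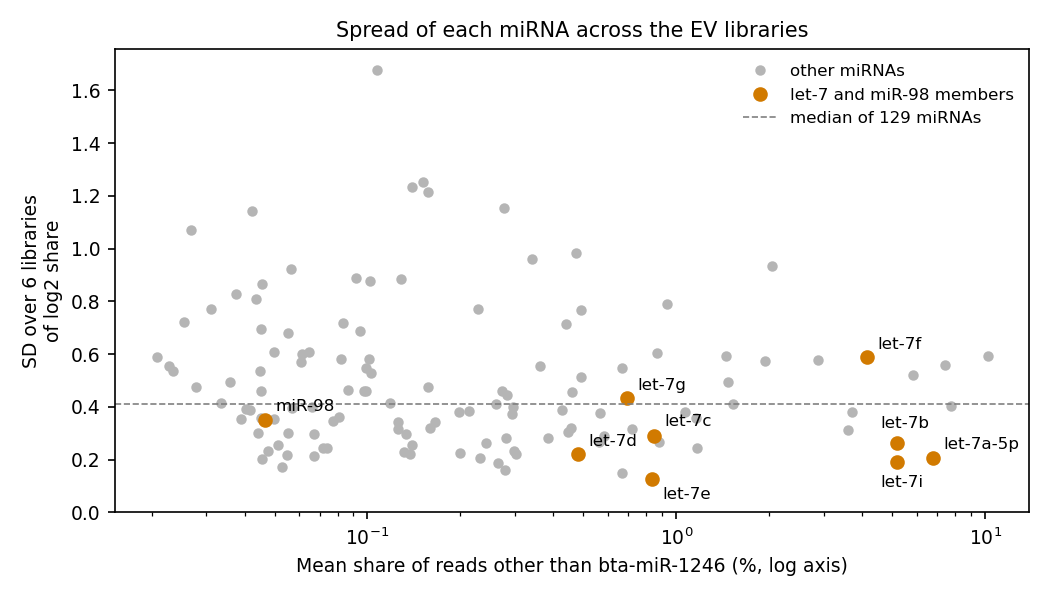
SD over the 6 libraries of the log2 share of reads other than bta-miR-1246, against the mean share (%, log axis), for 129 miRNAs with at least 10 reads in every library; the 9 let-7 and miR-98 members with this many reads are named, and the dashed line marks the median of 0.41. bta-let-7e is the lowest point at 0.13, and bta-let-7f at 0.59 and bta-let-7g at 0.43 lie above the line.

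A list of 7 miRNAs known to be encoded with, or antisense to, let-7 genes in mammals was examined, of which 6 were in the table. It does not hold every annotated neighbour, such as bta-miR-2443 beside MIRLET7A-3 and MIRLET7B, which had a mean of 0.659 normalized counts in control-EVs and 0.543 in HS-EVs. Of the 6, limma called 0 and gave 0 an unadjusted p of at most 0.05, and their median log2 fold change was 0.31. bta-miR-99b, which is encoded beside bta-let-7e, was the only one whose normalized counts did not overlap (higher in HS-EVs, as in 3.71% of all miRNAs), with 50, 100 and 56 reads in control-EVs and 38, 128 and 145 in HS-EVs. The fitted log2 fold change was 0.95 with a standard error of 0.45 (adjusted p = 0.873 from limma), while that of bta-miR-125a, from the same cluster, was 0.47. bta-let-7e had 12.8, 18.9 and 10.7 times the reads of bta-miR-99b in control-EVs and 8.58, 7.02 and 5.15 times in HS-EVs. It had fewer reads than bta-miR-125a in each library, 0.357 to 0.905 times as many.

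In the other clusters the ratios between products ranged from near 1 to over 100. bta-let-7b had 0.615 to 1.16 times the reads of bta-let-7a-5p, which also has genes elsewhere. bta-let-7c had 8.28 to 16.9 times the reads of bta-miR-99a-5p and 0.914 to 2.05 times those of bta-miR-125b, which has a further gene elsewhere. bta-let-7f had 55.5 to 116 times the reads of bta-miR-98, which shares HUWE1 with MIRLET7F-2, though bta-let-7f also comes from MIRLET7F-1. bta-let-7a-5p had 10.3 to 21.3 times the reads of bta-let-7d. bta-miR-100 had at most 20 reads and bta-miR-99a-3p at most 9 reads in any library.

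Among 120 miRNAs outside the family with at least 10 reads in each library, 3 followed the family's summed share of the reads other than bta-miR-1246 most closely over the 6 libraries. They were bta-miR-143 (Pearson r = 0.98), bta-miR-1343-5p (0.95) and bta-miR-296-3p (0.91). bta-miR-143 took 0.341%, 0.247% and 0.258% of these reads in the control-EVs and 0.349%, 0.261% and 0.337% in the HS-EVs. As for the family, both libraries numbered 1 and HS-EVs replicate 3 were high. The correlations were picked as the highest of 120 over 6 libraries that share denominators, bta-miR-1343-5p had 10 to 27 reads, and they are a description without a test.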

How the data were processed

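Small RNA of 6 EV libraries (3 control-EVs, 3 HS-EVs) was examined, grouped by the labels deposited with the data. The authors removed adapters with cutadapt (1.11), collapsed reads with the same unique molecular identifier (UMI), mapped them with Bowtie2 (2.2.2) to the bovine genome (UMD3.1) and to miRBase, and scaled the counts by TMM in edgeR. The deposited values are normalized read counts per miRNA, treated here as a signal with no values below 0. All values of a library (100%) were multiples, within 0.001, of its smallest value above 0, which was taken as 1 read. The scaling factors recovered in this way, 0.103 to 2.44, matched those that edgeR computes by TMM against control-EVs replicate 1. Shares do not depend on whether that value was 1 read. Wilson intervals (95%) and the floor of 3 reads cover counting error only.

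All 512 miRNAs were tested with limma (3.58.1, R 4.3.3) on log2(normalized count + 1), without a filter or block, with Benjamini-Hochberg adjustment. A fold change on this scale understates that of scarce miRNAs. Group means of shares were tested by exact permutation (10 divisions). Alternatives were edgeR (4.0.16) and DESeq2 (1.42.0) with the recovered reads, other scalings, pseudocounts, filters, a block and the removal of each library. The members, lists and tests were chosen with earlier results of these data known. All members were named, together with cluster partners and the 3 miRNAs outside the family most like it. All 15 pairs of libraries differed beyond sampling noise. Mature sequences and seed families were not analysed here.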

Additional observations from a re-analysis of the deposited data

How the results depend on the processing

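In none of the 18 other fits was a member past the threshold. The differences in the family's shares were recomputed without each library, without bta-let-7a-3p, from normalized counts and over same-numbered pairs, and that without bta-miR-1246 also without bta-miR-122, and they kept their sign in these. Over all 512 miRNAs, the number of calls rose from 0 to 1 with a pseudocount of 0.5 and with totals that leave bta-miR-1246 out, to 2 with limma's trend, 3 with edgeR's quasi-likelihood test, 7 with that test and the replicate block and 31 without both libraries numbered 1. With 1 library left out it lay between 0 and 4. Whether the replicate numbers pair the libraries is not stated. The correlation between libraries of 1 number, as deviations from the means of their groups, was 0.14, 0.14 and 0.08 over the 512 miRNAs and 0.23, 0.46 and 0.14 over the 130 with at least 10 reads in every library, where control-EVs replicate 3 correlated best with HS-EVs replicate 2 (0.15). They were not taken as pairs. With the replicate block, limma gave 1 member an unadjusted p of at most 0.05, bta-let-7a-3p (0.0314, adjusted 0.739), from at most 9 reads. In same-numbered pairs, 3 members differed the same way in share of the family's reads (bta-let-7a-5p and bta-let-7a-3p lower, bta-miR-98 higher in HS-EVs). Such agreement is common among 3 pairs, for which a sign-flip test allows no p below 0.25. No share over all miRNAs was computed for it, so the count is a description.

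With 1 library left out, between 0 and 1 members had an unadjusted limma p of at most 0.05 (bta-let-7f, without control-EVs replicate 1). The number of members whose shares of the family did not overlap lay between 1 and 4, with the most without control-EVs replicate 1. For shares of reads without bta-miR-1246 it lay between 1 and 5, again with the most without that library. On that scale it was 0 with all libraries kept and bta-miR-122 left out of the total. Smaller groups separate more readily, and no share over all miRNAs was computed for these settings, so the counts are a description. Some signs turned, among them those of bta-let-7f (0.50, standard error 0.49) and bta-miR-98 (0.36, standard error 0.44). Scaling by all reads gave log2 fold changes of -1.45 (bta-let-7c), -1.03 (bta-let-7f), -1.50 (bta-let-7g), -1.37 (bta-let-7i) and -1.12 (bta-miR-98), and scaling without bta-miR-1246 gave 0.056 (bta-let-7a-5p), 0.0019 (bta-let-7d) and 0.047 (bta-let-7e). For bta-let-7g it was -0.021 with DESeq2 size factors, -0.030 with edgeR and -0.052 with DESeq2. With 1 library left out, log2 fold changes lay between -0.155 and 0.104 (bta-let-7a-5p), -0.157 and 0.218 (bta-let-7c), -0.225 and 0.0745 (bta-let-7d), -0.155 and 0.0633 (bta-let-7e) and -0.168 and 0.337 (bta-let-7g). Differences in share of the family's reads then lay between -2.21 and 0.161 (bta-let-7a-5p), -0.269 and 0.533 (bta-let-7c), -0.367 and 0.154 (bta-let-7d) and -0.350 and 0.552 (bta-let-7g) percentage points. As a log2 ratio to the other members, bta-let-7g was higher in HS-EVs by 0.023. Apart from the scalings, the cause was not tested.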
